A study of Mus musculus with 6 samples.

Results

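The genes described here encode enzymes that make nucleotides, serine and the carbon units carried by folate. They numbered 31 of the 54532 genes in the count table and were chosen by gene symbol, with earlier results of these data known. They fall into 5 branches, with 8 genes of deoxynucleotide supply, 10 of purine synthesis, 5 of pyrimidine synthesis, 3 of serine synthesis and 5 of the folate cycle. All 31 had at least 177 reads in every library, and all 31 were among the 17505 genes kept by the filter on low counts.

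Cells that replicate their DNA need a supply of deoxynucleotides. Ribonucleotide reductase makes these from ribonucleotides, thymidylate synthase makes the thymidine nucleotide with a carbon unit taken from folate, and salvage kinases recover nucleosides from outside the pathway. Serine, made from a glycolytic intermediate by a short chain of enzymes or taken up by the cell, gives its side-chain carbon to folate through the serine hydroxymethyltransferases. In the newborn cerebellum the main dividing cells are granule neuron progenitors (GNPs) of the external granule layer, while serine synthesis in brain is known mainly from radial glia and astrocytes.

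Polyadenylated RNA of whole cerebella at postnatal day 1 was sequenced in 6 libraries. The 3 libraries labelled control came from littermates of genotype *Tox3f/f*, and the 3 labelled mutant came from conditional knockouts of genotype *Nestin-cre;Tox3f/f*. Both groups carried the floxed *Tox3* allele, and only the mutants carried the Nestin-cre transgene, so the presence of Cre and the deletion cannot be told apart. This transgene expresses Cre in neural progenitors, and so acts in neurons and glia alike and not only in GNPs. Neither litter nor the number of animals per library is given, so the p-values measure the spread between these libraries.

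Total counts ranged from 15391854 to 17178478 per library, of which the 31 genes took 31692 to 37380. Levels are given below in CPM, the read count of a gene scaled to the size of its library with TMM factors. *Tox3*, the targeted gene, was at 64.3, 63.0 and 64.4 CPM in controls 1 to 3 and at 55.3, 63.2 and 59.2 CPM in mutants 1 to 3. Its groups overlapped, with a log2 fold change of −0.11 (SE 0.06, adjusted p = 0.252). This count sums reads over every exon, and the sources used here do not say which exons the floxed allele loses, so it does not check the labels. *Atoh1*, the transcription factor that defines GNPs, was at 32.6, 32.0 and 30.9 CPM in the controls and 0.577, 0.261 and 0.249 CPM in the mutants. Sex is not in the labels. Y-linked genes were high in control 1, mutant 1 and mutant 3, and *Xist* was high in control 2, control 3 and mutant 2. Both groups thus held both sexes, but in unequal shares, so sex was not balanced between them.

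Nucleotide and folate genes made up every gene that was called lower, and the 1 gene called higher belonged to serine synthesis. Of the 31 genes, 8 were called lower, at an adjusted p under 0.01 with a log2 fold change beyond 0.5. That was 25.8% of them, against 3.63% of all genes tested. They were *Tyms*, *Tk1*, *Dut*, *Rrm1*, *Rrm2*, *Shmt1*, *Mthfd1l* and *Ppat*. Only *Phgdh* was called higher, and 1 of 31 is about the share of all genes tested (3.03%). On the adjusted p alone, which is the sense of "fell" and "rose" below, 15 of 31 (48.4%) fell, against 7.24% of all genes tested. The 2 of 31 that rose were again about the share of all genes tested (6.55%). With 1 library left out, 9 to 13 fell and 1 or 2 rose, the 9 without mutant 3.

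The separation of the libraries was wider than the calls. All 3 mutant libraries lay below all 3 controls for 25 of the 31 genes (80.6%), against 20.1% of all genes tested. They lay above the controls for *Phgdh* and *Psph*, a pattern seen in 20.4% of all genes tested, and the groups overlapped for *Adsl*, *Dhodh*, *Psat1* and *Mthfd1*. The median log2 fold change was −0.29 over the 31 genes and −0.01 over all genes tested.

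**Figure D1:**
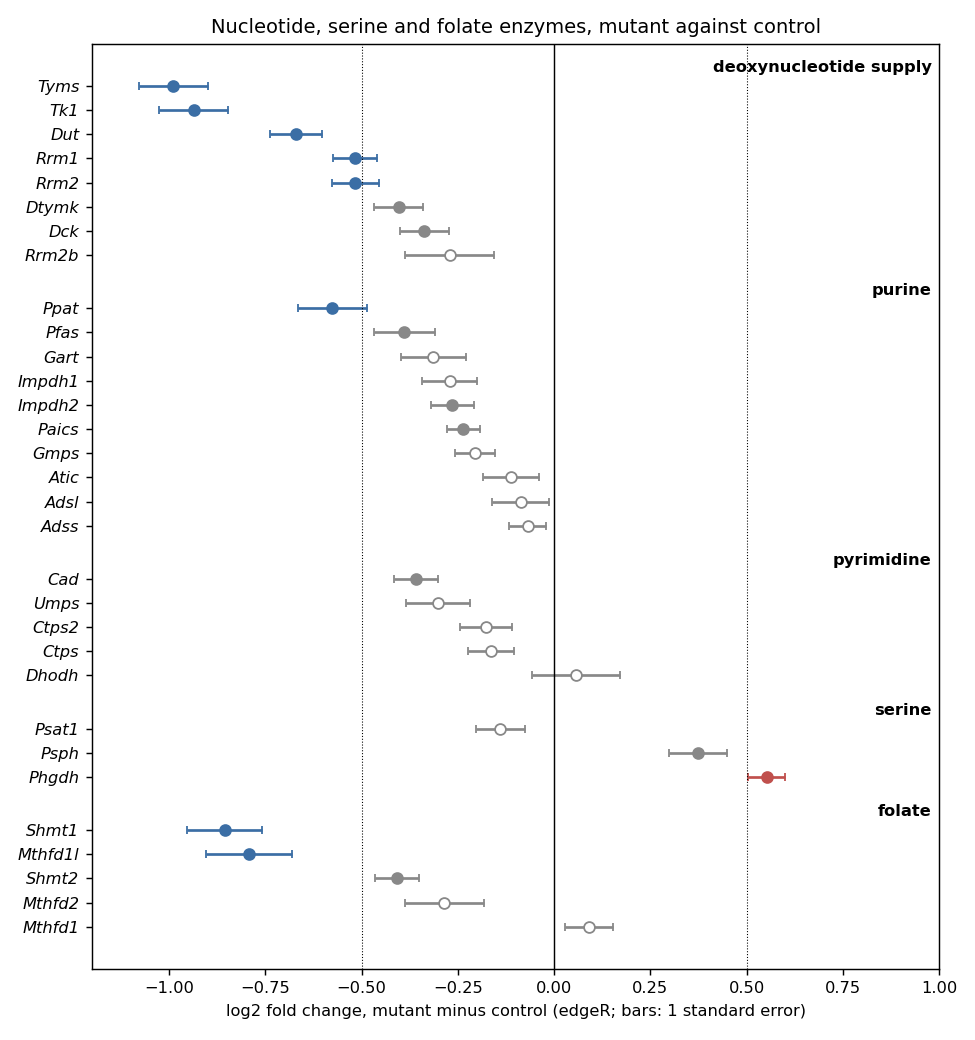
The log2 fold change of each of the 31 genes, mutant minus control, is plotted by branch with bars of 1 standard error. Blue points were called lower and the red point was called higher, filled grey points had an adjusted p under 0.01 only, open points did not, and dotted lines mark 0.5 on either side. *Tyms* lies farthest left at −0.99 and *Phgdh* farthest right at 0.55.

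Deoxynucleotide supply moved most and pyrimidine synthesis least among the branches that were lower. The branch medians of the log2 fold change were −0.52 for deoxynucleotide supply, −0.41 for folate, −0.25 for purine, −0.18 for pyrimidine and 0.37 for serine. Within single libraries, measured against the mean of the controls, the deoxynucleotide median was −0.57, −0.45 and −0.54 in mutants 1 to 3, and the controls lay between −0.05 and 0.04. The serine median was 0.38, 0.36 and 0.38 in the same libraries. With 3 genes, this median is the value of *Psph* alone, and *Psat1* in the same branch had a negative log2 fold change (−0.14). The order of the branches was not tested.

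**Figure D2:**
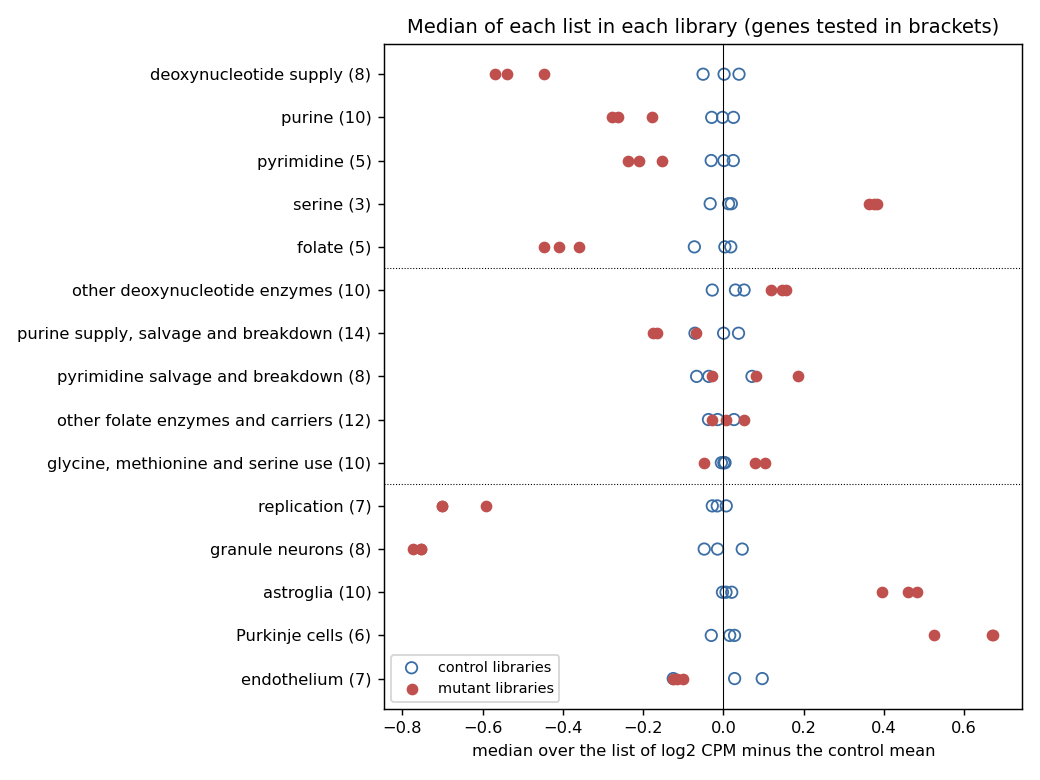
Each point is 1 library, and its position is the median over a gene list of log2 CPM minus the mean of the controls; open points are controls and filled points mutants. The 5 branches are at the top, other genes of the same pathways in the middle and marker lists at the bottom. In the 5 branches the mutant points stand clear of the controls, to the left in 4 and to the right for serine. The serine points lie between 0.36 and 0.38 and are the values of *Psph*, the middle gene of 3.

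RefSeq promoter windows of GRCm38.p6, running from 250 bases before the transcription start to 50 after it, were found for 28 of the 31 genes, in 33 windows. *Rrm2b*, *Pfas* and *Dhodh* had no entry. Stretches of 120 bases are printed for 3 genes with large falls and for *Phgdh*, the gene called higher. They show sequence before the RefSeq start of genes that moved in opposite directions. The *Shmt1* stretch is within the gene span given below, which reaches 60811718, as its RefSeq start lies inside that span. All stretches run 5′ to 3′ on the strand of the gene, with CACGTG and CAGCTG motifs in capitals. Their positions are chr5:30073626-30073745 for *Tyms*, chr11:117826093-117826212 for *Tk1*, chr11:60811266-60811385 for *Shmt1* and chr3:98339991-98340110 for *Phgdh*, all on the minus strand.
Tyms: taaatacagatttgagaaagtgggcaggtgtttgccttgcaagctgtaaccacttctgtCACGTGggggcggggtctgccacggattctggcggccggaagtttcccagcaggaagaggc
Tk1: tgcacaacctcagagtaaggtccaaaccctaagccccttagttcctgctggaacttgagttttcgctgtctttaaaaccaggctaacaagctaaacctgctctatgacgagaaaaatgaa
Shmt1: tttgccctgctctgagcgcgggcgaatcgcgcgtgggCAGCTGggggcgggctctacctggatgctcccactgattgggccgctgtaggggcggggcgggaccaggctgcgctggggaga
Phgdh: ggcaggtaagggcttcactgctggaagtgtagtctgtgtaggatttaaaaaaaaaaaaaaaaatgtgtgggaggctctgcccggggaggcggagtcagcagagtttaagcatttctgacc

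Motifs were searched as exact letters on both strands of the whole windows. CACGTG, an E-box bound by Myc and related factors, was in 5 of the 33 windows (15.2%) and in 7.15% of all 32851 windows. The genes were *Tyms*, where its first base lies 61 bases before the start, *Dtymk*, *Atic*, *Paics* and *Impdh2*. CAGCTG, an E-box of the kind bound by bHLH factors such as Atoh1, was in the windows of *Rrm2*, *Paics* and *Shmt1* (9.09%) and in 16.3% of all windows. An E2F motif (TTTCCCGC, TTTCGCGC, TTTGCCGC or TTTGGCGC) was found only in the window of *Ppat*, at 2 places, against 2.26% of all windows. TGATGNAA, a motif of the stress factor ATF4, was in 3.97% of all windows and in none of the 33, which says only that these letters are not in them. CACGTG lay before *Tyms*, which was called lower, and also before *Atic*, with a log2 fold change of −0.11.

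Deoxynucleotide supply had 7 of its 8 genes fall, 5 of them by enough to be called. *Tyms* (ENSMUSG00000025747, chromosome 5, 30058202 to 30073617, minus strand, GRCm38) encodes thymidylate synthase. It was at 33.0, 34.4 and 33.2 CPM in controls 1 to 3 and at 18.2, 17.3 and 15.2 CPM in mutants 1 to 3. The groups were far apart, with the mutants at 50.4% of the control level and a log2 fold change of −0.99 (SE 0.09, adjusted p = 6.61e-05 in the edgeR fit to all genes tested). *Tk1* (ENSMUSG00000025574, chromosome 11, 117815526 to 117826092, minus strand), the cytosolic thymidine kinase that salvages thymidine in S phase, was at 53.6, 49.1 and 53.6 CPM in the controls and 28.7, 28.9 and 24.2 CPM in the mutants. Here too every mutant lay below every control, and the log2 fold change was −0.94 (SE 0.09, adjusted p = 9.13e-05). *Dut*, the dUTPase that keeps uracil out of DNA, was at 84.2, 86.3 and 96.2 CPM in the controls and 56.3, 58.1 and 53.1 CPM in the mutants. There was no overlap either, with a log2 fold change of −0.67 (SE 0.07, adjusted p = 1.27e-04).

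The subunits of ribonucleotide reductase had smaller fold changes than *Tyms* and *Tk1*. *Rrm1* (ENSMUSG00000030978, chromosome 7, 102441695 to 102469771, plus strand), the large subunit, was at 203, 206 and 193 CPM in the controls and 137, 151 and 133 CPM in the mutants. *Rrm2* (ENSMUSG00000020649, chromosome 12, 24708241 to 24714146, plus strand), the small subunit made in S phase, was at 91.9, 95.5 and 103 CPM in the controls and 64.5, 69.9 and 68.8 CPM in the mutants. Neither gene's groups overlapped, and both log2 fold changes were −0.52 (SE 0.06 for each, adjusted p = 2.17e-04 and 3.32e-04), just past the threshold of 0.5. *Rrm1* fell short of it without control 2 (−0.497), mutant 1 (−0.497) or mutant 3 (−0.480), and *Rrm2* without control 3 (−0.468) or mutant 1 (−0.482). *Rrm2b*, the small subunit known for induction by p53 and for use outside S phase, was at 13.7, 17.3 and 14.0 CPM in the controls and 12.5, 11.99 and 12.8 CPM in the mutants. Its groups did not overlap, but its log2 fold change of −0.27 (SE 0.12) did not pass (adjusted p = 0.118).

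The other kinases of the branch fell by less than 0.5. *Dtymk*, which phosphorylates the thymidylate made by *Tyms* or *Tk1*, was at 67.1, 71.0 and 73.6 CPM in the controls and 56.2, 52.5 and 51.3 CPM in the mutants (log2 fold change −0.40, SE 0.06, adjusted p = 0.00160). *Dck*, the deoxycytidine kinase, was at 57.5, 58.5 and 60.2 CPM in the controls and 46.8, 48.2 and 44.5 CPM in the mutants (−0.34, SE 0.06, adjusted p = 0.00387). In both genes each mutant library was below the lowest control. Both missed the adjusted p of 0.01 without control 3 or mutant 3, and *Dck* also without control 2 or mutant 1.

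**Figure D3:**
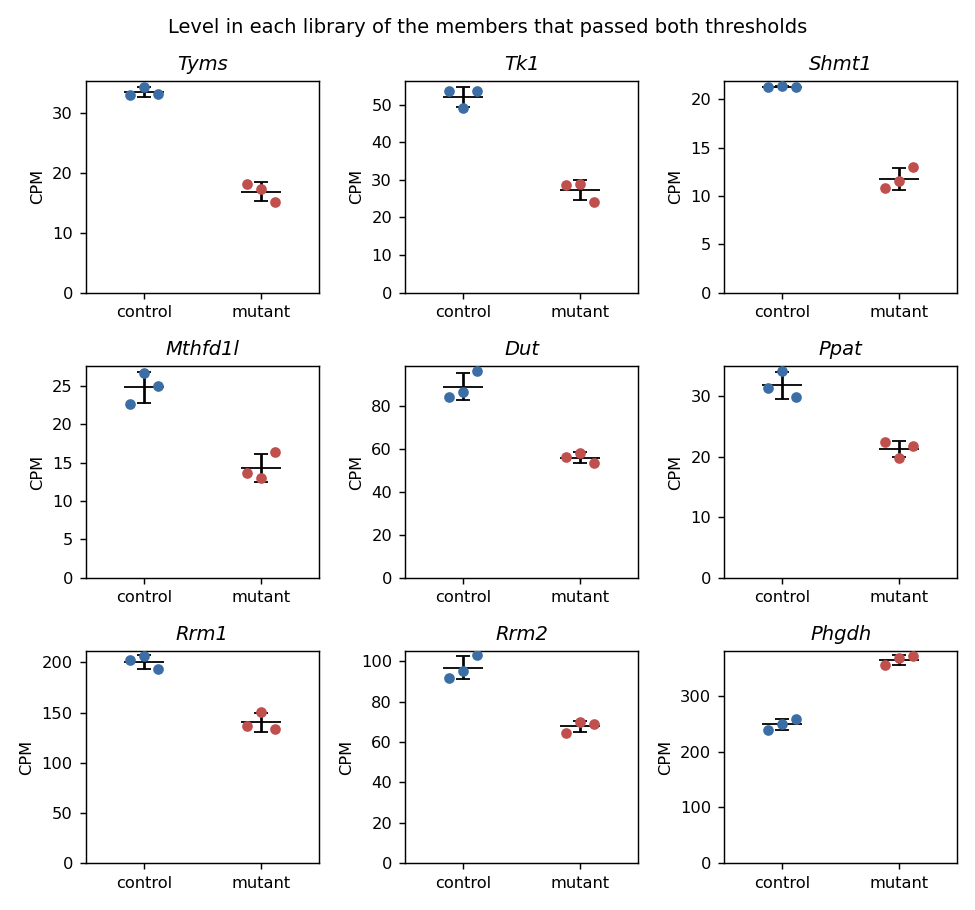
The level in each library of the 9 genes that were called is shown in CPM on axes that start at 0, with controls at left and mutants at right; the long line is the mean and the bars are 1 SD over 3 libraries. No mutant point reaches a control point in any panel, and *Phgdh* is the only panel in which the mutants stand higher.

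Beside this branch, the replication markers *Mcm2* to *Mcm7* and *Pcna* fell in 7 of 7, with a median log2 fold change of −0.68. Their summed level was 956 to 992 CPM in the controls and 612 to 628 CPM in the mutants. All 6 GNP markers were called lower, with a median of −1.24 and a summed level of 903 to 972 CPM against 325 to 353 CPM. The GNP list was chosen with earlier results of these data known and holds *Atoh1*. *Barhl1*, another of its genes, had a mean of 307 CPM in the controls and 51.1 CPM in the mutants, a large part of that sum. *Mcm6*, a helicase subunit, had the smallest p of its list, with a log2 fold change of −0.82, and *Ccnd1*, a GNP marker that drives entry into the cycle, changed by −1.05. The part of these lists in the result was not tested. In whole cerebellum, fewer cells of a type and less RNA per cell cannot be told apart.

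In the folate cycle 3 of 5 genes fell and 2 of them were called. *Shmt1* (ENSMUSG00000020534, chromosome 11, 60788104 to 60811718, minus strand), the cytosolic serine hydroxymethyltransferase, was at 21.3, 21.4 and 21.3 CPM in the controls and 10.8, 11.5 and 13.0 CPM in the mutants. The controls were nearly level (SD 0.0506 CPM) and the groups were well apart, with a log2 fold change of −0.85 (SE 0.10, adjusted p = 2.55e-04). *Mthfd1l* (ENSMUSG00000040675, chromosome 10, 3973118 to 4167081, plus strand), the mitochondrial formyltetrahydrofolate synthetase, was at 22.7, 26.8 and 25.0 CPM in the controls and 13.6, 13.0 and 16.4 CPM in the mutants. Its log2 fold change was −0.79 (SE 0.11, adjusted p = 7.96e-04). *Shmt2*, the mitochondrial serine hydroxymethyltransferase, fell from 107, 97.1 and 106 CPM to 75.8, 77.7 and 80.5 CPM (−0.41, SE 0.06, adjusted p = 7.91e-04). Genes of the cytosol and of the mitochondrion were thus both among those that fell.

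The remaining pair of folate genes did not pass. *Mthfd2*, the mitochondrial dehydrogenase and cyclohydrolase, was at 13.5, 14.1 and 15.4 CPM in the controls and 11.5, 12.3 and 11.4 CPM in the mutants, without overlap (−0.29, SE 0.10, adjusted p = 0.0683). *Mthfd1*, the cytosolic enzyme that carries all 3 activities of this step, was at 61.3, 66.9 and 65.3 CPM in the controls and 69.0, 72.1 and 65.1 CPM in the mutants. It was the only folate gene of the 5 with a positive log2 fold change (0.09, SE 0.06, adjusted p = 0.329), and mutant 3 lay among the controls.

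Purine synthesis was lower by smaller steps. All 10 log2 fold changes were negative, 4 of the 10 genes fell and 1 was called. *Ppat* (ENSMUSG00000029246, chromosome 5, 76913249 to 76951578, minus strand), the amidotransferase that commits the cell to purine synthesis, was at 31.4, 34.2 and 29.8 CPM in the controls and 22.4, 19.8 and 21.8 CPM in the mutants (log2 fold change −0.58, SE 0.09, adjusted p = 0.00133). *Paics* (ENSMUSG00000029247, chromosome 5, 76951307 to 76967509, plus strand), a later enzyme of the same chain, was at 194, 191 and 188 CPM in the controls and 163, 160 and 164 CPM in the mutants (−0.24, SE 0.04, adjusted p = 0.00302). These neighbours lie on opposite strands with starts 276 bases apart, and their 5′ ends overlap head to head, sharing 272 exonic bases. Whether strand was used in counting is not given, so reads from those bases cannot be told apart. *Pfas*, which acts between them, changed by −0.39 (SE 0.08, adjusted p = 0.00590), and *Gart* by −0.31 (SE 0.08, adjusted p = 0.0225). Without mutant 3, *Ppat* alone of the 4 genes that fell still passed, as *Paics* (adjusted p = 0.0153), *Pfas* (0.0289) and *Impdh2* (0.0359) did not. *Paics* also missed without control 1 or mutant 1, *Pfas* without control 1, control 3 or mutant 2, and *Impdh2* whichever library was left out.

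Past the branch point at inosine monophosphate, the genes of the guanine arm had larger differences than those of the adenine arm, a contrast that was not tested. *Impdh2* and *Impdh1*, the dehydrogenases at the head of the guanine arm, changed by −0.26 (adjusted p = 0.00674) and −0.27 (adjusted p = 0.0204), and *Gmps*, the GMP synthetase, by −0.20 (adjusted p = 0.0165). *Adss* and *Adsl*, which make adenosine monophosphate, changed by −0.07 (adjusted p = 0.330) and −0.09 (adjusted p = 0.438). *Adsl* also acts before the branch point, so it is not particular to the adenine arm. *Atic*, which closes the purine ring, stood at −0.11 (adjusted p = 0.301). Of the 10 genes, *Adsl* alone had overlapping groups, since its controls spread from 48.0 to 56.2 CPM around mutants at 47.9 to 49.4 CPM.

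*Impdh2* shares most of its message with a processed pseudogene, *Impdh2-ps*, at 99.7% identity over 1545 bases. The pseudogene held 2631 reads over the 6 libraries, 42.4% of the 6206 reads of *Impdh2*, and how reads that match both were counted is not given. With both summed, the level was 104, 105 and 98.7 CPM in the controls and 86.5, 83.3 and 81.9 CPM in the mutants, a log2 ratio of means of −0.29 against −0.26 for *Impdh2* alone. No mutant library reached a control in either form.

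Of the 5 pyrimidine genes, 1 fell. *Cad* (ENSMUSG00000013629, chromosome 5, 31054780 to 31078479, plus strand), the fused enzyme that opens the pathway, was at 124, 116 and 125 CPM in the controls and 101, 89.6 and 94.6 CPM in the mutants (log2 fold change −0.36, SE 0.06, adjusted p = 0.00174, and 0.0112 without mutant 3). *Umps*, which closes the chain to UMP, had a difference of −0.30 (adjusted p = 0.0260) without overlap. The CTP synthetases *Ctps* and *Ctps2* stood at −0.16 (adjusted p = 0.0697) and −0.18 (adjusted p = 0.0852), again with every mutant below every control. *Dhodh*, the mitochondrial enzyme of the middle step, was at 13.0, 13.0 and 14.4 CPM in the controls and 13.0, 16.0 and 13.1 CPM in the mutants. Its groups overlapped and mutant 2 was highest, with a log2 fold change of 0.06 (SE 0.11, adjusted p = 0.757) that became −0.035 without that library.

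Of the 3 serine genes, 2 rose. *Phgdh* (ENSMUSG00000053398, chromosome 3, 98313170 to 98339990, minus strand), the dehydrogenase of the first step, was at 239, 249 and 259 CPM in the controls and 355, 367 and 372 CPM in the mutants. All mutants were above all controls, at 147% of the control level, with a log2 fold change of 0.55 (SE 0.05, adjusted p = 4.84e-05). *Psph* (ENSMUSG00000029446, chromosome 5, 129765558 to 129787449, minus strand), the phosphatase of the last step, was at 21.7, 20.96 and 21.6 CPM in the controls and 28.0, 27.6 and 27.8 CPM in the mutants (0.37, SE 0.07, adjusted p = 0.00525). Its libraries were tightly grouped, with an SD of 0.424 CPM in the controls and 0.207 CPM in the mutants, but its adjusted p missed 0.01 in 5 of the 6 fits that left out 1 library (0.00934 to 0.0279 over the 6), the exception being the fit without mutant 2.

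*Psat1*, the transaminase that acts between these 2 enzymes, was not among the genes that rose. It was at 163, 146 and 153 CPM in the controls and 147, 129 and 142 CPM in the mutants, with overlapping groups and a log2 fold change of −0.14 (SE 0.06, adjusted p = 0.138). Within each library the log2 ratio of *Phgdh* to *Psat1* was 0.55, 0.77 and 0.76 in the controls and 1.27, 1.51 and 1.39 in the mutants. This ratio is given as a description, as it was chosen with the fold changes known.

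Beside the rise of *Phgdh*, markers of astroglia were higher. Of 10 astroglial genes, all had a positive log2 fold change, 6 rose and 4 were called higher, with a median of 0.44 and a summed level of 4286 to 4439 CPM in the controls and 5800 to 6154 CPM in the mutants. *Gdf10*, made by Bergmann glia, changed by 1.18 and *Aldoc*, an astrocyte aldolase, by 0.67. The log2 ratio of *Phgdh* to *Aldh1l1*, a folate dehydrogenase that marks astrocytes, was −0.46, −0.37 and −0.43 in the controls and −0.34, −0.31 and −0.32 in the mutants, without overlap. *Aldh1l1* is not among the 10 astroglial genes and itself rose, so this ratio is a description and was not tested. Purkinje markers (4 of 6 called higher, summed 1401 to 1476 against 1956 to 2314 CPM) and oligodendrocyte markers (5 of 7, summed 502 to 538 against 658 to 704 CPM, with *Pdgfra* lower at −0.45) were higher as well, and their part in the result was not tested.

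Further marker lists were measured in the same libraries. Granule neuron markers were lower, with 5 of 8 called and a summed level of 3447 to 3626 CPM against 2425 to 2596 CPM. Endothelial markers summed to 390 to 428 CPM in the controls and 382 to 393 CPM in the mutants, and erythroid genes to 98.8 to 106 and 82.4 to 118 CPM. Meningeal genes had 3 of 7 called higher (699 to 735 against 857 to 1043 CPM) and microglial genes 1 of 7 (103 to 108 against 133 to 146 CPM). The meningeal list was mixed, as 3 of its 7 genes had a negative log2 fold change and overlapping groups.

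Ratios of 2 enzymes within a library were compared for 6 pairs by a two-sided exact permutation test, which with 3 libraries against 3 cannot give a p below 0.1. The log2 ratio of *Shmt1* to *Shmt2* was −2.33, −2.19 and −2.32 in the controls and −2.81, −2.75 and −2.63 in the mutants. The groups did not overlap, and the difference of −0.45 had the smallest p the exact test allows (p = 0.1, 0.3 after Benjamini-Hochberg adjustment over the 6 pairs). *Mthfd2* to *Mthfd1* behaved alike, at −2.19, −2.25 and −2.08 against −2.58, −2.55 and −2.51, a difference of −0.37 (exact p = 0.1, adjusted 0.3).

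The other 4 pairs overlapped between groups. *Rrm2* to *Rrm2b* differed by −0.25 (exact p = 0.2, adjusted 0.4) and *Tyms* to *Tk1* by −0.05 (exact p = 0.6, adjusted 0.9). The differences for *Impdh1* to *Impdh2* (−0.0047) and for *Ctps* to *Ctps2* (0.0091) were smaller than the SD of either group, with an exact p of 1 for each. The exact test could not reach an adjusted p under 0.01 for any of the 6 pairs.

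**Figure D4:**
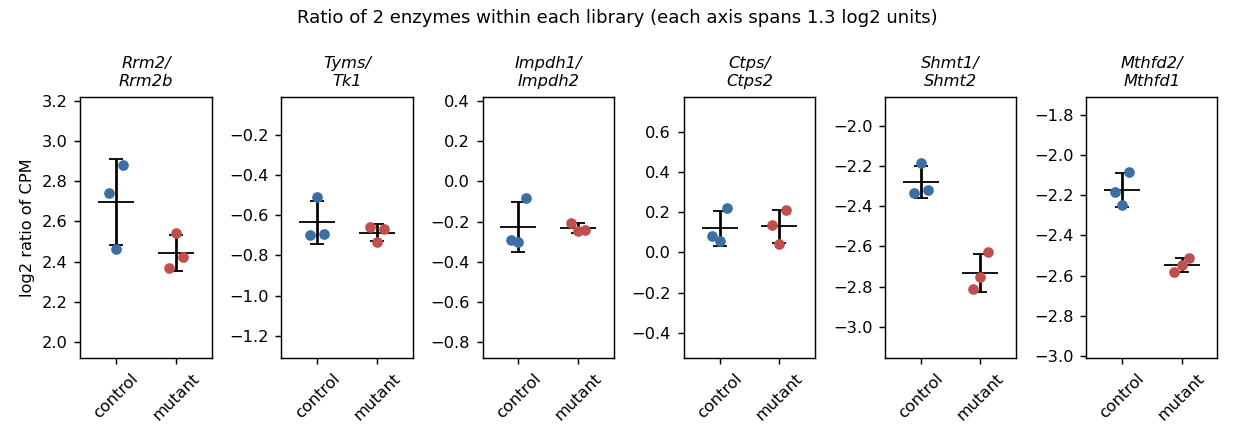
Each point is the log2 ratio of the CPM of 2 enzymes within 1 library, with the mean as a long line and bars of 1 SD over 3 libraries; every axis spans the same number of log2 units. The mutant points lie below all control points for *Shmt1*/*Shmt2* and *Mthfd2*/*Mthfd1*, and the groups overlap in the other 4 panels.

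Levels were compared between genes per gene length, on the deposited FPKM scale. For all 31 genes this length was the union of the GENCODE M21 exons, so the order depends on the annotation. In the controls *Rrm1* had a mean of 201 CPM and *Paics* of 191 CPM, but *Rrm1* stood at 18.1 FPKM. In the controls *Phgdh* stood highest at 99.1 ± 4.09 FPKM (SD, n = 3), and it reached 146 ± 3.24 FPKM in the mutants. *Paics* followed at 60.4 ± 0.900 FPKM in the controls. *Dut* at 36.5 ± 2.65, *Psat1* at 35.8 ± 1.97, *Rrm2* at 34.6 ± 2.07 and *Shmt2* at 33.0 ± 1.74 FPKM came next, and neighbours in this group of 4 lay within their SDs. *Rrm2b* at 1.63 ± 0.217 and *Dhodh* at 2.11 ± 0.124 FPKM were the lowest. *Tyms*, *Shmt1* and *Mthfd1l*, 3 of the 4 largest differences, were near the low end at 5.46 ± 0.130, 5.44 ± 0.0149 and 5.55 ± 0.464 FPKM.

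**Figure D5:**
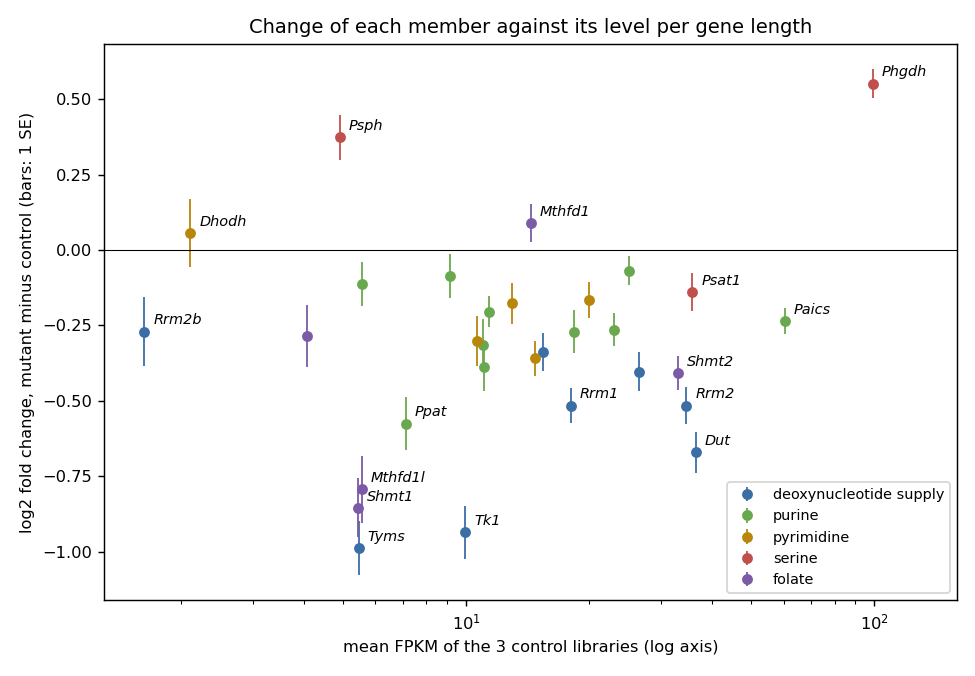
Each point is 1 of the 31 genes, at its mean FPKM over the 3 control libraries (horizontal log axis) and its log2 fold change with a bar of 1 standard error (vertical axis), coloured by branch. *Phgdh* is alone at the upper right, at 99.1 FPKM and 0.55, while *Tyms*, *Shmt1* and *Mthfd1l* lie low between 5.44 and 5.55 FPKM.

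Genes elsewhere in these pathways passed at about the share of all genes. Of 55 further genes of salvage, breakdown, folate handling and methionine use, 54 were tested, and 4 of them (7.41%) fell, against 7.24% of all genes tested, while 2 rose, against 6.55%. Their median log2 fold change was −0.01. By edgeR 0 of them were called by both thresholds, as by DESeq2, while 12 were lower and 9 higher at an unadjusted p under 0.05.

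Among these, *Uck2*, a uridine-cytidine kinase of salvage, was at 106, 105 and 101 CPM in the controls and 83.7, 80.4 and 82.8 CPM in the mutants, without overlap (log2 fold change −0.34, SE 0.05, adjusted p = 0.00102). *Dctpp1*, a pyrophosphatase that clears deoxycytidine triphosphate, changed by −0.45 (adjusted p = 0.00359). The genes that rose were *Aldh1l1*, at 328, 322 and 348 CPM in the controls and 450, 454 and 464 CPM in the mutants (0.46, SE 0.05, adjusted p = 1.42e-04), and *Amt*, the aminomethyltransferase of glycine cleavage (0.45, SE 0.08, adjusted p = 0.00309). The mitochondrial salvage kinases *Tk2* (0.07, adjusted p = 0.677) and *Dguok* (−0.04, adjusted p = 0.8004) had overlapping groups, unlike their cytosolic counterparts *Tk1* and *Dck*.

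Of the 31 genes, 12 share exonic bases with another annotated gene, among them *Psph* with *Cct6a* (452 bases), *Shmt1* with *Smcr8* (184 bases) and *Tk1* with *Afmid* (83 bases), each on the opposite strand. *Cct6a*, *Smcr8* and *Afmid* had log2 fold changes of −0.13, −0.08 and −0.23, with adjusted p-values of 0.0710, 0.468 and 0.595. *Afmid* held 193 reads over the 6 libraries. Pseudogene copies of *Phgdh* held at most 2.63% of its reads, in *Gm7901*. Stretches of *Tyms* also match other genes, among them *Reep3* (355 bases at 97.7% identity). *Reep3* held 12973 reads over the 6 libraries against 2378 for *Tyms*, and how reads that match both were counted is not given.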

How the data were processed

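Polyadenylated RNA of 6 P1 cerebella libraries, 3 per group, was analysed, with groups taken from the labels. Per the submitters' processing notes, reads were aligned to mm10 with HISAT2 2.0.5 and counted per gene with featureCounts 1.5.0-p3. The authors deposited raw read counts and FPKM values, the latter scaled by the authors for gene length and library size. Whether strand was used in counting, and how reads with several matches were treated, is not given in the sources used here.

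Counts were tested with edgeR 4.0.16 in R 4.3.3 (filterByExpr, TMM, quasi-likelihood F-test, mutant against control without covariates), with Benjamini-Hochberg adjustment over the 17505 genes tested. They held 99.81% of the counts. A gene was called at an adjusted p under 0.01 and an absolute log2 fold change over 0.5. Ratios of enzymes were compared by exact permutation over 20 arrangements. The deposited FPKM gave levels between genes and limma 3.58.1 fits. Each SD covers the spread between the 3 libraries of a group. Each SE is the absolute log2 fold change divided by the square root of the quasi-likelihood F. It therefore rests on a dispersion estimated over both groups and moderated over all genes tested. The main edgeR fit, the replicate block, DESeq2 and the FPKM fits were tested on simulated data, and the other alternatives were not.

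The genes, the 5 further pathway lists and the 10 marker lists were chosen with earlier results of these data known. Named were all 31 genes, *Tox3*, *Atoh1*, up to 3 genes with the smallest p per list and genes overlapping them. *Tk2*, *Dguok*, *Ccnd1*, *Pdgfra*, *Reep3* and *Gm7901* were chosen after their values were seen. Alternatives were DESeq2 1.42.0, other scalings and filters, a replicate block, sex-linked covariates, FPKM fits, other thresholds and leaving out each library. Same-group libraries differed by a chi-square of 3.64 to 10.0 per gene, so none was a copy. Gene positions follow GENCODE M21 on GRCm38, and promoter sequences come from RefSeq. Some genes of the further pathway lists are not reported here by name.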

Additional observations from a re-analysis of the deposited data

How the results depend on the processing

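Of 495 values of the 31 log2 fold changes under alternatives, 482 kept direction and call, 12 lost the call and 1 reversed. The losses were *Rrm1* in 6 of its 16 alternatives and *Rrm2* in 5, whose log2 fold changes ranged from −0.56 to −0.48 and from −0.55 to −0.47, and *Ppat* on log2(FPKM + 1), at −0.49. The reversal was *Dhodh*, at −0.035 without mutant 2, and between that and 0.11 when each library was left out. The 8 genes called lower were 8 by DESeq2 and without X and Y genes, 6 with library size alone or the level of Y genes as a covariate, and 5 by limma on log2(FPKM + 1), a scale that shrinks changes of low genes. Without a fold threshold 15 were lower and 2 higher, and when edgeR's glmTreat tested the change against 0.5 only 2 were lower (*Tk1* and *Tyms*) and 0 higher, with 5 lower and 0 higher at an unadjusted p under 0.05. Leaving out 1 library gave 6 to 8 called lower and 1 called higher each time. On the adjusted p alone, the 15 that fell became 14 by DESeq2, 14 on either FPKM scale and 17 without the filter on low counts.

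Deviations of same-numbered libraries had correlations of 0.28, 0.32 and −0.18, and control 1 was closest to mutant 3 at 0.31. Controls and mutants of the same sex had correlations of 0.24 to 0.32, and those of opposite sex of −0.46 to −0.12. As the correlations followed sex, they cannot show whether replicate numbers pair the samples. With the replicate block 8 were called lower, the same 8 genes, and 1 higher.

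Leaving out 1 library moved the difference of the pair ratios between −0.37 and −0.16 for *Rrm2*/*Rrm2b*, −0.086 and 0.0085 for *Tyms*/*Tk1*, −0.043 and 0.066 for *Impdh1*/*Impdh2*, −0.031 and 0.059 for *Ctps*/*Ctps2*, −0.50 and −0.41 for *Shmt1*/*Shmt2*, and −0.41 and −0.33 for *Mthfd2*/*Mthfd1*. The 3 pairs that changed sign thus had no stable direction, and the cause was not tested. With 3 libraries per group, the interval of a gene such as *Rrm2b*, at about 15.0 CPM in the controls, was wide (SE 0.12 on the log2 scale).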
